A study of Mus musculus with 20 samples.

Results

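The phase II conjugation enzymes of the mouse kidney were taken as the protein-coding genes whose symbols begin with Ugt, Gst or Sult followed by the subfamily and number, which gave 65 genes of 47069 in the count table: 22 UDP-glucuronosyltransferase (Ugt) genes, 22 glutathione S-transferase (Gst) genes and 21 sulfotransferase (Sult) genes. The rule used symbols only and no measured value. Whole-kidney RNA-seq had been made from 20 male mice killed at 15 weeks of age on a mixed 129SJ x C57Bl/6J background. The groups were 5 wild-type littermates that were Col4a3+/+ and received nothing (WT), and 3 groups of F1-Col4a3-/- mice, which lack the alpha-3 chain of type IV collagen in every cell and are a model of Alport syndrome. From 5 weeks of age, 6 of these mice were injected weekly under the skin with PBS (Veh), 6 with lademirsen at 50 mg/kg in PBS, an oligonucleotide inhibitor of the microRNA miR-21 (Anti-miR-21), and 3 drank ramipril, an inhibitor of angiotensin-converting enzyme, at 11 mg/L and were injected with PBS (ACEi). The deposited library table gives the ramipril dose as 4 mg/kg. WT mice were not injected, so genotype and injection cannot be told apart in Veh against WT.

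Phase II enzymes attach a polar group to drugs, hormones, bilirubin, bile acids and lipids so that they can be exported in urine or bile. Ugt proteins sit in the endoplasmic reticulum and transfer glucuronic acid, or another sugar, from a UDP-sugar. Gst proteins add glutathione to electrophiles, and some of them also isomerise metabolites or reduce peroxides. Sult proteins are cytosolic and transfer a sulfonate group from the donor PAPS. In the kidney, many of these enzymes are known from the proximal tubule, the segment that takes up and secretes organic anions.

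The members lay mostly in clusters of neighbours (GRCm38). On chr5:86889767-87591594 stood 13 members, made of the Ugt2 genes with Sult1b1, Sult1d1 and Sult1e1. The 9 Ugt1a genes lay on chr1:88055388-88220002, where alternative first exons are spliced to shared last exons, the 7 Gstm genes on chr3:107895821-108044894, 8 Sult2a genes on chr7:13623967-14494230, and the 3 Gstp genes on chr19:4035407-4059569. To show the proximal sequence of members of 1 cluster with the same or opposite direction of change below, the 250 bases before the RefSeq start of 5 genes (GRCm38.p6) are printed 5′ to 3′ on the gene's own strand. Ugt2b38 and Sult1d1 are of the cluster on chromosome 5, Gstp1 and Gstp3 of that on chromosome 19, and Gsta3 is 1 of the members that held the antioxidant response element core. Capitals mark that core, TGACNNNGC, or the xenobiotic response element core, GCGTG, read on either strand, and the cores do not share letters in these windows.
Ugt2b38 (chr5:87424204-87424453, minus strand): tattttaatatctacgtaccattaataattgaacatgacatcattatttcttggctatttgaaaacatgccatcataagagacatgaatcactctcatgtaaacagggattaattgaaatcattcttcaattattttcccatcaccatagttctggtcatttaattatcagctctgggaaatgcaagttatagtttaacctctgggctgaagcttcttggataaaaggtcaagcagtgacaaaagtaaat
Sult1d1 (chr5:87569007-87569256, minus strand): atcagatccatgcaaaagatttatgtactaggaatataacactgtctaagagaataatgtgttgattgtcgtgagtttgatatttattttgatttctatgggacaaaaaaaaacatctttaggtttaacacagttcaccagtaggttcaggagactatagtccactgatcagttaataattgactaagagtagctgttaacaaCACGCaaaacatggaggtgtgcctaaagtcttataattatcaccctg
Gstp1 (chr19:4037913-4038162, minus strand): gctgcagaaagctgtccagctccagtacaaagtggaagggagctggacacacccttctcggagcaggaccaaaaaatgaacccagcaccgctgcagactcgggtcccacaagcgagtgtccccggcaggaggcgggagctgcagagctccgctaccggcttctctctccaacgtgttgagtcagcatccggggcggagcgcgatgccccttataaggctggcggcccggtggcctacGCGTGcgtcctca
Gstp3 (chr19:4059448-4059697, minus strand): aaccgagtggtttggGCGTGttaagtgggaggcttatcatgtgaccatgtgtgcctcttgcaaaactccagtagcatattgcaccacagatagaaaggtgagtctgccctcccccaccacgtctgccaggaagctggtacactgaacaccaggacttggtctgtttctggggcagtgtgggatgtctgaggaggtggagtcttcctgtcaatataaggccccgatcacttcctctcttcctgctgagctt
Gsta3 (chr1:21240335-21240584, plus strand): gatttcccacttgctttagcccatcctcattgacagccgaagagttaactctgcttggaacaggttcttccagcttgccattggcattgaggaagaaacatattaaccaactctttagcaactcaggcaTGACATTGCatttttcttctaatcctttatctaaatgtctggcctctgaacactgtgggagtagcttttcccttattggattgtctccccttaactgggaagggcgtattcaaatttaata

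Of the 65 members, 57 had such a window. The antioxidant core stood in 3 of them (Gsta3, Gstm5 and Gstm7), or 5.26%, against 11.5% of 27025 genes. The xenobiotic core stood in 11, or 19.3%, against 30.9% of all genes. The HNF1 consensus, the palindromic motif of a hepatocyte nuclear factor, was matched in 0 members and in 3 of the 27025 genes. So rare an exact match cannot tell the members from other genes, and sites that differ from it by a letter were not searched. These are matches of letters within a short window and say nothing about binding.

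Libraries held 28474301 to 29479629 estimated counts per mouse, so depth was nearly equal. Col4a3 itself averaged 217 ± 16.4 CPM (counts scaled to library size after TMM normalisation, SD, n = 5) in WT and 37.8 ± 7.63 CPM (n = 6) in Veh, and RNA from the disrupted gene was still counted. Defining proximal tubule markers were present in every library, with a sum of 7 genes of 11391 to 14462 CPM in WT and 1209 to 3373 CPM in Veh. Adipocyte markers summed to 312 to 382 CPM in Veh replicates 1 to 3 and to 185 CPM in Anti-miR-21 replicate 4, against 47.4 CPM at most in the other 16 libraries. The labels' extraction text speaks of adipose tissue although the tissue is given as kidney. Results that moved without these 4 libraries are given beside the result. The mice were sequenced on a pair of flow cells, with every group on both.

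Enough counts for testing were found for 45 members, namely 17 Ugt, 20 Gst and 8 Sult genes. The other 20 were at 0 in every mouse (10 genes) or reached no more than 18 counts in any mouse (10 genes). They included Sult1e1, the estrogen sulfotransferase, all 8 Sult2a genes, which sulfonate steroids and bile acids in liver, Sult3a1, Sult3a2, Sult1c1, Sult6b2, Gstm3, Gstt4, Ugt2a1, Ugt2a2, Ugt2b1, Ugt2b35 and Ugt2b36. This low level says that they were hardly detectable at this depth in whole kidney. Per transcript length, on the FPKM scale as deposited, the highest mean level in WT was that of Ugt3a2 with 597 FPKM, followed by Gstm1 with 414, Gstp1 with 285, Ugt2b38 with 274, Sult1d1 with 264 and Ugt3a1 with 196 FPKM. At least 10 FPKM was reached by 23 members. Ranks moved when FPKM was computed again from the counts: Ugt1a10 went from 19 to 7, Gstp1 from 3 to 6, Gstz1 from 7 to 10 and Gstt2 from 9 to 16.

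**Figure D1:**
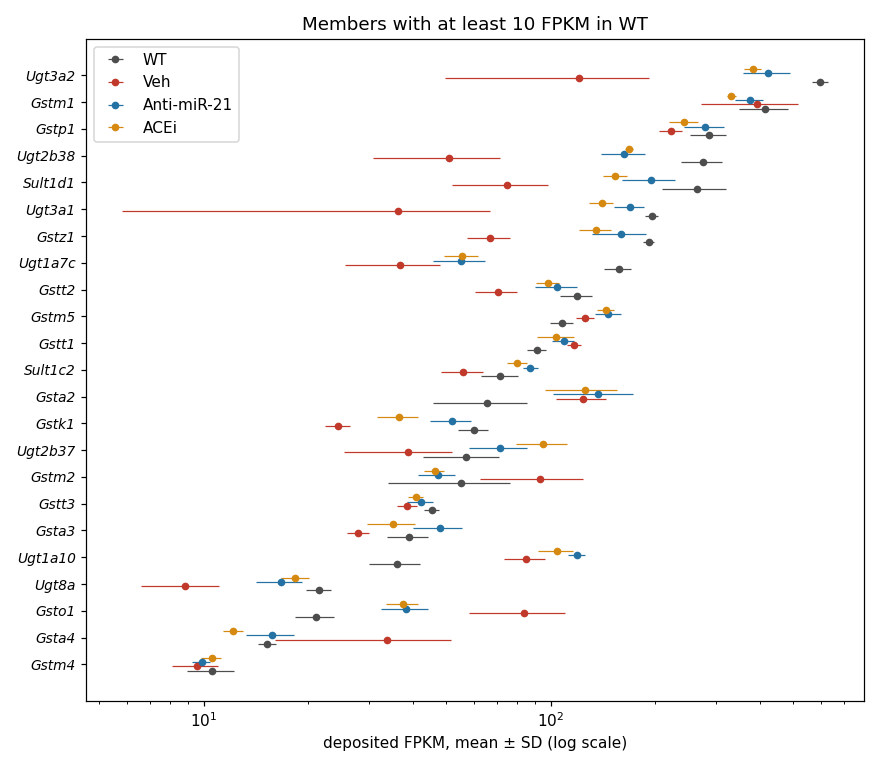
Mean deposited FPKM per group for the 23 members with at least 10 FPKM in WT, on a log axis, with bars of 1 SD over mice, cut at the lower end where the SD nears the mean (5 WT, 6 Veh, 6 Anti-miR-21, 3 ACEi). Ugt3a2, Gstm1, Gstp1 and Ugt2b38 stood highest in WT; the deposited FPKM were scaled to library totals, unlike the CPM of the tests.

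The comparison of Veh with WT asked what the untreated disease did to these genes at 15 weeks. In Veh, 29 of the 45 tested members fell and 10 rose, with a median log2 fold change over members of -0.74. These kidneys differed broadly, since 73.0% of all 17622 genes tested passed the same threshold (adjusted p of 0.05, edgeR quasi-likelihood test), with 39.0% higher and 34.0% lower and a median of 0.07. The Veh and WT values did not overlap for 22 members that were lower and 6 that were higher, beside 54.9% of all genes in either direction (26.1% lower, 28.8% higher). The Ugt family was the most one-sided, with 14 of 17 lower, 1 higher and a median of -1.14. Its tested genes include the 9 Ugt1a genes (6 lower, 1 higher), which share last exons and so are not counted apart with certainty. Of the Gst genes, 12 of 20 were lower and 5 higher (median -0.58), and of the Sult genes 3 of 8 were lower and 4 higher (median 0.78). Among the latter, Sult6b1 reached 10 counts in Veh mice only. It was thus tested only through the group where it was high, and it adds no support to the count or median of the Sult genes. Within flow cell A alone 37 of 44 members passed (10 higher, 27 lower), beside 11763 of 17208 genes. With flow cell as a term in the fit 37 of 45 members passed, beside 12827 of 17622 genes. When at least 10 counts were required in every library, 37 members were tested. Of these, 28 were lower and 4 higher (median -0.89), beside 5122 lower and 5565 higher of 13897 genes. That filter drops members near 0 in any library, such as Sult4a1 in WT, so most of the rises were of genes with few counts in some mice. Scaling to library totals alone moved the median of all genes from 0.07 to 0.65. The members' split became 16 higher and 20 lower, beside 11623 higher and 2684 lower of 17622 genes. Fewer cells of a type and less RNA per cell cannot be told apart in whole kidney.

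Both treatments were compared with the same Veh mice, so their results share those controls. In Anti-miR-21 against Veh, 30 members were higher and 10 lower (median 0.68), beside 59.2% of all genes past the threshold (28.8% higher, 30.5% lower, median -0.04). Values did not overlap for 22 higher and 4 lower members, beside 36.4% of all genes in either direction (18.6% and 17.9%). In ACEi against Veh, 25 members were higher and 6 lower (median 0.55), beside 40.1% of all genes (21.0% higher, 19.1% lower, median -0.05). Values did not overlap for 21 higher and 4 lower members, beside 38.6% of all genes in either direction (19.8% and 18.8%). The Ugt family had 14 of 17 genes higher in each treatment, and the other 3 did not pass the threshold in either direction. The Gst family had 13 higher and 6 lower in Anti-miR-21 and 8 higher and 3 lower in ACEi, and the Sult family 3 higher and 4 lower in Anti-miR-21 and 3 and 3 in ACEi. Under library totals alone the split was 22 higher and 12 lower in Anti-miR-21 and 18 higher and 8 lower in ACEi. Beside these, 2459 genes were higher and 9861 lower in Anti-miR-21, and 1907 higher and 7389 lower in ACEi. The medians of all genes were -0.38 and -0.32. Within flow cell A, 36 of 44 members passed in Anti-miR-21 against Veh (28 higher, 8 lower), beside 9750 of 17208 genes. ACEi had 1 mouse there. With flow cell as a term, 39 and 30 members passed in Anti-miR-21 and ACEi, beside 10391 and 6577 of 17622 genes.

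**Figure D2:**
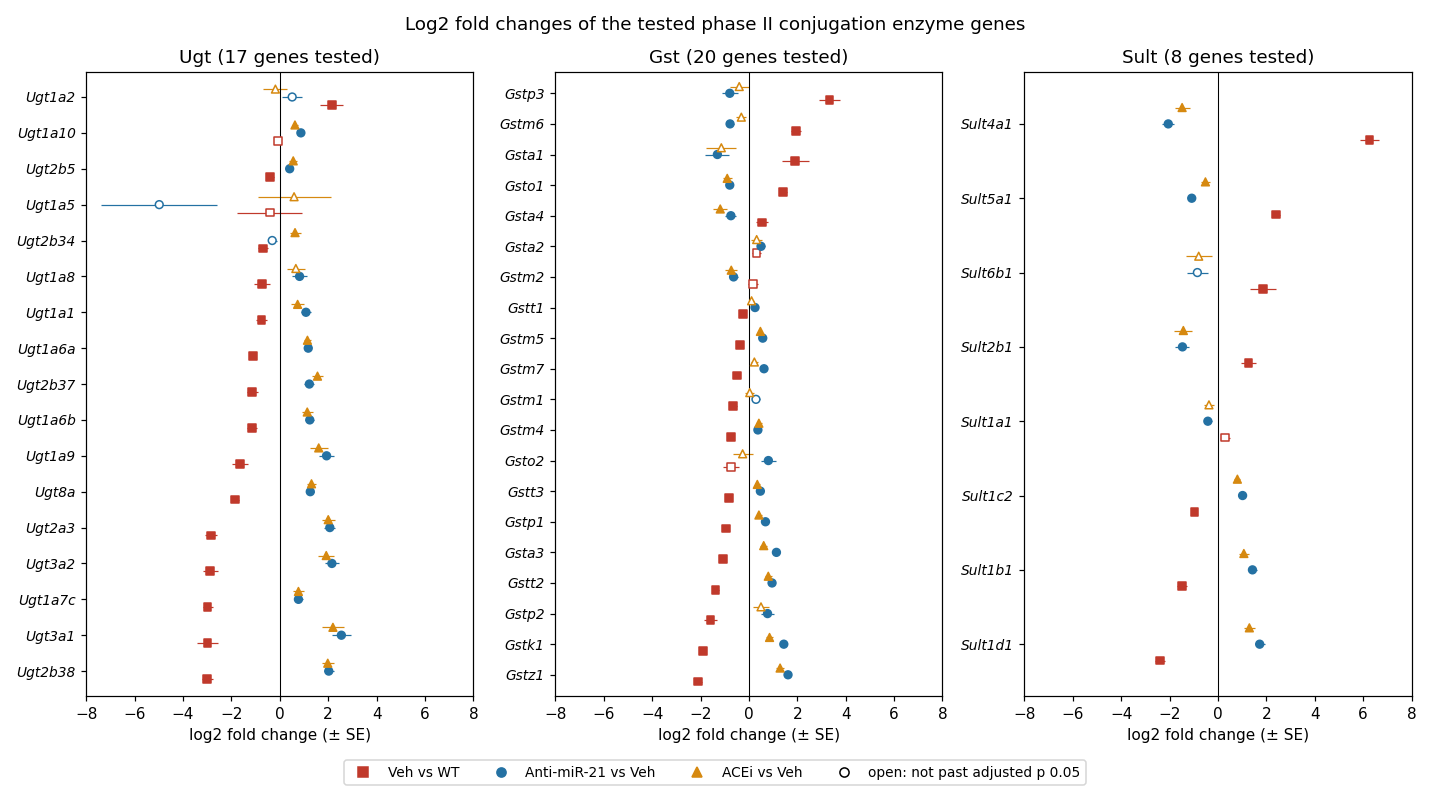
Fitted log2 fold change of each tested member in Veh against WT, Anti-miR-21 against Veh and ACEi against Veh, with bars of 1 standard error, by family; filled points passed the threshold. In Veh 14 Ugt genes lay below 0 past the threshold, and in each treatment 14 Ugt genes lay above 0 past it.

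The largest falls among the Ugt genes were those of Ugt2b38, Ugt3a1, Ugt1a7c, Ugt3a2 and Ugt2a3. Ugt3a2 (ENSMUSG00000049152, chr15:9335550-9370955), whose protein uses UDP-glucose or UDP-xylose rather than UDP-glucuronic acid, was at 1842, 1527, 1599, 1483 and 1527 CPM in the 5 WT mice, and the 6 Veh mice had a lowest value of 80.1, a median of 188 and a highest of 455. Anti-miR-21 mice ran from 685 over a median of 957 to 1259, and the 3 ACEi mice had 763, 902 and 791. No Veh value reached any value of another group, and no treated value reached WT. Fitted log2 fold changes were -2.88 ± 0.32 (SE, edgeR adjusted p = 6.4e-08) in Veh against WT, 2.15 ± 0.30 (adjusted p = 4.8e-06) in Anti-miR-21 against Veh and 1.92 ± 0.34 (adjusted p = 0.00020) in ACEi against Veh. Against WT it stayed at -0.73 in Anti-miR-21 (adjusted p = 0.055) and -0.96 in ACEi (adjusted p = 0.041). The first passed without Anti-miR-21 replicate 6 (-0.82), and the second did not pass without any one of the ACEi mice (-0.91 to -1.03) or without WT replicate 1, 2, 3 or 5 (-0.90 to -0.98).

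Its neighbour Ugt3a1 (ENSMUSG00000072664, chr15:9276888-9315032), which transfers N-acetylglucosamine, behaved in the same direction in each comparison. WT mice had 555, 559, 536, 498 and 545 CPM, Veh mice ran from 14.8 over a median of 49.9 to 175, Anti-miR-21 mice from 301 over 406 to 458, and ACEi mice had 304, 344 and 281. The Veh spread was wide, at 67.8 ± 60.5 CPM (SD, n = 6), and the 3 Veh libraries with adipocyte markers held 21.6, 63.6 and 14.8 CPM. In Veh against WT it was at -2.99 ± 0.42 on the log2 scale (edgeR adjusted p = 2.3e-06), and it became -2.40 without the 4 libraries with adipocyte markers and -4.01 within flow cell A. The treatments stood 2.54 ± 0.41 and 2.19 ± 0.45 above Veh on the log2 scale, Anti-miR-21 first, and the first of these became 1.93 without the same libraries and 3.55 within flow cell A.

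Ugt2b38 (ENSMUSG00000061906, chr5:87409942-87424203), a member of the Ugt2b group that glucuronidates steroids and many drugs, was at 634, 518, 747, 667 and 581 CPM in WT. Veh mice ran from 47.3 over a median of 68.5 to 149, Anti-miR-21 mice from 247 over 294 to 417, and ACEi mice had 290, 327 and 312. Every treated value thus lay between the Veh and the WT ranges. On the log2 scale it stood at -3.00 ± 0.22 in Veh against WT (edgeR adjusted p = 2.8e-10), 2.02 ± 0.21 in Anti-miR-21 and 1.98 ± 0.24 in ACEi against Veh, and -0.98 and -1.02 against WT, each past the threshold. Of the read-length windows of its transcripts, 24.2% also occur in Ugt2b5 or Ugt2b37, so the split of reads among these genes is uncertain. Ugt2a3 (-2.84 ± 0.24) and Ugt2b37 (-1.14 ± 0.22) also fell in Veh and were higher in both treatments.

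Ugt8a makes galactosylceramide and is the ceramide member of the family. It fell from 93.0 ± 7.42 CPM (SD, n = 5) in WT to 25.8 ± 7.52 (n = 6) in Veh, and stood at 61.7 ± 13.6 (n = 6) in Anti-miR-21 and 63.9 ± 4.19 (n = 3) in ACEi. The 17.8 to 38.2 CPM of Veh did not overlap with the 43.7 CPM or more of any other mouse. Ugt2b34 was the Ugt gene with the most different values in the treatments. It was at 15.1, 22.2, 14.9, 11.8 and 7.68 CPM in WT, 6.72 to 11.3 in Veh with a median of 8.77, 5.73 to 8.01 in Anti-miR-21 with a median of 7.22, and 12.4, 16.7 and 12.1 in ACEi. It rose in ACEi against Veh (log2 fold change 0.63 ± 0.23) but not without ACEi replicate 2 (0.47), Veh replicate 1 (0.59) or Veh replicate 2 (0.59). In Anti-miR-21 against Veh it was at -0.32 ± 0.19 (edgeR adjusted p = 0.17).

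**Figure D3:**
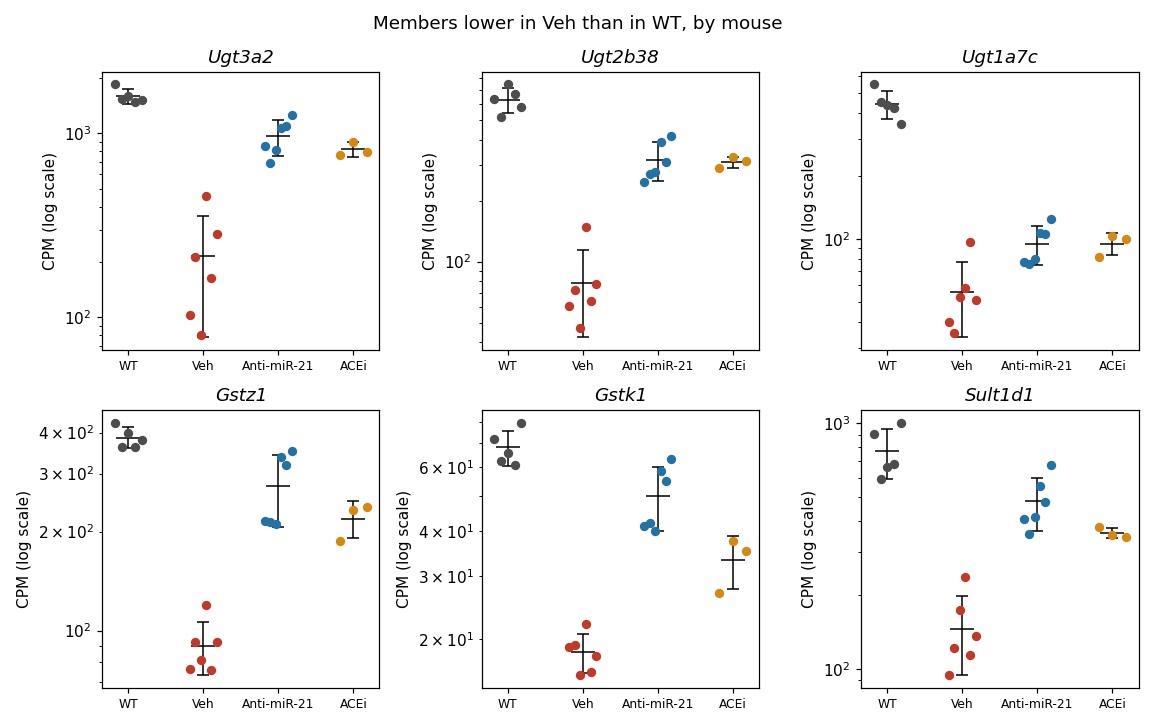
CPM of single mice for 6 members that were lower in Veh, on a log axis, with 1 point per mouse and bars for each group's mean and SD. The Veh points of Ugt3a2, Ugt2b38, Gstz1 and Gstk1 lay below those of the other groups without overlap.

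The Ugt1a genes share their last exons, and between 50.4% and 77.4% of the read-length windows of each occur in another gene, so counts of single Ugt1a genes are uncertain. Summed over the 9 genes the locus was at 820 ± 99.0 CPM (SD, n = 5; 743 to 983) in WT, 366 ± 36.2 (n = 6; 330 to 412) in Veh, 686 ± 96.1 (n = 6; 575 to 792) in Anti-miR-21 and 598 ± 83.7 (n = 3; 536 to 693) in ACEi. The Veh sums lay below all others, and the sums in Anti-miR-21 overlapped with WT while those in ACEi did not. Within the sum, the share given to Ugt1a7c fell from 53.8% of the locus on average in WT (47.9% to 56.5%) to 15.1% in Veh (10.7% to 25.5%), and was 13.7% in Anti-miR-21 (12.5% to 15.9%) and 15.9% in ACEi (14.9% to 17.6%). The share of Ugt1a10 was 32.9% in WT (29.4% to 35.7%) and 69.3%, 67.8% and 65.3% on average in Veh, Anti-miR-21 and ACEi, with no F1-Col4a3-/- mouse below 61.7%.

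As single genes, Ugt1a7c (ENSMUSG00000090124, chr1:88095062-88220002) was at 547, 452, 437, 420 and 355 CPM in WT and at 35.4 to 96.7 in Veh (median 51.8). Anti-miR-21 mice had 75.8 to 125 (median 92.6) and ACEi mice 81.9, 103 and 99.6, so that every F1-Col4a3-/- mouse, treated or not, stayed below every WT mouse. Its log2 fold change was -2.99 ± 0.21 in Veh and -2.22 in each treatment against WT (edgeR adjusted p = 4.3e-08 in Anti-miR-21 and 1.1e-06 in ACEi), and 0.77 in each treatment against Veh. The rise over Veh did not pass without the 4 libraries with adipocyte markers (0.45 in Anti-miR-21 and 0.49 in ACEi), nor in ACEi without its replicate 2 (0.71). Ugt1a10 (chr1:88055388-88219004) was at 320, 295, 252, 218.4 and 265 CPM in WT and at 226 to 301 in Veh (median 243), with a log2 fold change of -0.09 ± 0.11 (adjusted p = 0.45) that became 0.49 under library totals, 1.22 on the log2(FPKM + 1) scale and -0.29 within flow cell A, each past the threshold. It rose to 405 to 536 CPM in Anti-miR-21 (median 460) and to 345, 454 and 373 in ACEi, above every WT mouse, by 0.87 ± 0.10 and 0.62 ± 0.12 against Veh and by 0.78 and 0.53 against WT.

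Ugt1a2 was the Ugt gene that rose in Veh. Its level was low, at 3.21, 3.86, 1.60, 0.286 and 0.419 CPM in WT and 4.80 to 13.4 in Veh (median 7.45), with a log2 fold change of 2.15 ± 0.48 (edgeR adjusted p = 0.00045). The lowest WT mice were those of flow cell B, and within flow cell A the value was 1.74. The deposited FPKM gave a smaller difference and no such split, with 4.14, 3.82, 3.61, 3.95 and 3.54 FPKM in WT and 5.97 to 9.20 in Veh (median 7.81), or 0.81 on the log2(FPKM + 1) scale. It stayed at 7.001 to 21.2 CPM in Anti-miR-21 (median 10.7) and at 8.82, 8.02 and 5.04 in ACEi, which did not differ from Veh past the threshold (0.51 ± 0.40 and -0.18 ± 0.50), though Anti-miR-21 did on the log2(FPKM + 1) scale (0.41, limma adjusted p = 0.0014). Ugt1a6a, which conjugates small phenols, was lower in Veh (-1.11 ± 0.13) and at 42.1 ± 10.3 CPM (SD, n = 6) in Anti-miR-21 and 41.1 ± 3.71 (n = 3) in ACEi against 40.2 ± 5.76 (n = 5) in WT. Its deposited FPKM showed no fall in Veh, with means of 5.86 in WT, 6.01 in Veh, 11.2 in Anti-miR-21 and 11.4 in ACEi. On that scale every treated mouse was above every WT mouse. Ugt1a5 rested on 21 counts in 1 WT mouse and at most 17 in any other mouse, so no fold change is given.

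**Figure D4:**
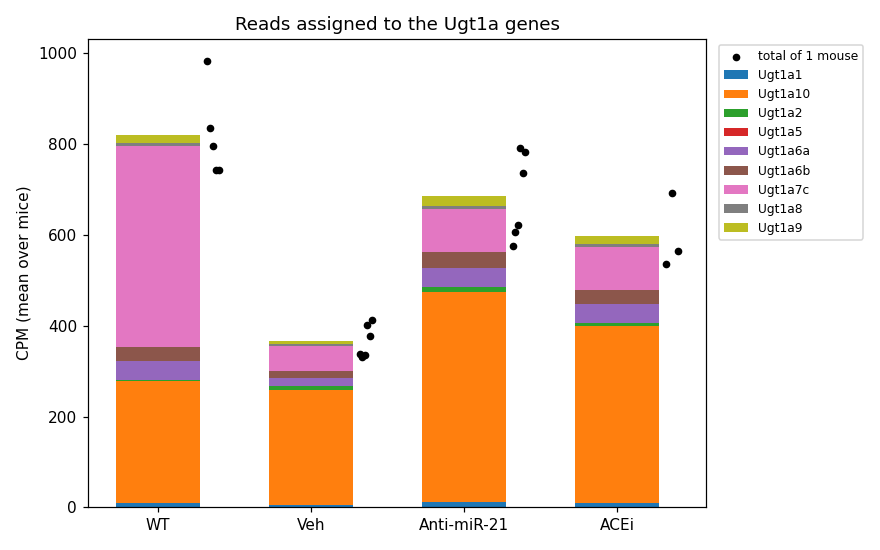
CPM of the 9 Ugt1a genes, stacked as group means, with points for the locus sum of each mouse. The Veh sums of 330 to 412 CPM lay below every other mouse, and the part given to Ugt1a7c made most of the WT sum.

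Among the Gst genes, Gstz1 and Gstk1 fell most. Gstz1 (ENSMUSG00000021033, chr12:87147165-87164723), the maleylacetoacetate isomerase of tyrosine breakdown, was at 428, 362, 399, 362 and 381 CPM in WT and at 75.6 to 120 in Veh (median 86.8). Anti-miR-21 mice had 211.5 to 352 (median 267) and ACEi mice 187, 233 and 237. The groups of treated mice overlapped with neither Veh nor WT. The log2 fold change was -2.11 ± 0.15 in Veh (edgeR adjusted p = 1.5e-10), 1.62 ± 0.14 in Anti-miR-21 and 1.29 ± 0.17 in ACEi against Veh, and -0.49 and -0.82 against WT.

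Gstk1 (ENSMUSG00000029864, chr6:42245935-42250447), the mitochondrial and peroxisomal kappa-class enzyme, was at 72.0, 62.4, 65.6, 61.1 and 79.8 CPM in WT, 15.9 to 22.1 in Veh (median 18.5), 40.0 to 63.3 in Anti-miR-21 (median 48.5) and 27.0, 37.6 and 35.2 in ACEi. All Anti-miR-21 mice were thus above all ACEi mice. The log2 fold change was -1.89 ± 0.13 in Veh, 1.44 ± 0.12 in Anti-miR-21 and 0.85 ± 0.15 in ACEi, and the direct difference of Anti-miR-21 from ACEi was 0.59 ± 0.15 (edgeR adjusted p = 0.076). Without Anti-miR-21 replicate 2 that difference passed (0.64, adjusted p = 0.049), in a fit that also called more of all genes than the fit with every mouse. Gstt2 (-1.38 ± 0.14) and Gsta3 (-1.08 ± 0.13), whose antioxidant core is printed above, were lower in Veh too and higher in both treatments.

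The 3 Gstp genes, which lie together, split. Gstp1 (ENSMUSG00000060803, chr19:4035407-4037985), the main pi-class enzyme, was at 258, 217, 270, 251 and 306 CPM in WT and 118 to 145 in Veh (median 139), a log2 fold change of -0.95 ± 0.12. It was at 168 to 267 in Anti-miR-21 (median 207.6; 0.68 ± 0.11 against Veh) and 152, 197 and 188 in ACEi (0.41 ± 0.14), and the latter did not pass without ACEi replicate 2 (0.34) or 3 (0.38). Gstp2 fell by 1.59 on the log2 scale from a low level of 5.63 ± 2.34 CPM (SD, n = 5), and shares 46.9% of its windows with Gstp1 or a pseudogene, so its values are uncertain. Of the windows of Gstp1, 25.1% occur in Gstp2 or the pseudogene, so the split of reads is uncertain for Gstp1 too. Gstp3 (ENSMUSG00000058216, chr19:4057477-4059569), which shares 0 windows, went the other way: WT mice had 0.0891, 0.0820, 0.465, 0.204 and 0.0419 CPM, from 1 to 11 counts each, and Veh mice 0.907 to 2.46 (median 1.99). Its log2 fold change was 3.33 ± 0.42 in Veh (edgeR adjusted p = 5.3e-07) and 4.06 without WT replicate 3. It remained above every WT mouse in Anti-miR-21 (0.698 to 1.42, median 1.09) and ACEi (1.44, 1.43 and 1.26). The lower value in Anti-miR-21 against Veh, -0.79 ± 0.32 (adjusted p = 0.040), did not pass without Anti-miR-21 replicate 1, 2, 4 or 6 or Veh replicate 1, 3, 4 or 6 (-0.67 to -0.82).

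The mu-class genes were mixed. Gstm1, the most abundant of them per length in WT, was at 553, 540, 731, 727 and 701 CPM in WT and 309 to 635 in Veh (median 360), so the groups overlapped. Its log2 fold change of -0.67 ± 0.16 (edgeR adjusted p = 0.00085) was -0.45 within flow cell A and -0.09 under library totals, and passed in neither. Neither treatment passed against Veh (0.29 ± 0.15 in Anti-miR-21 and 0.03 ± 0.19 in ACEi), but Anti-miR-21 did without Veh replicate 1 (0.48), the Veh mouse with the highest Gstm1 and the highest adipocyte sum. Gstm6 rose from 0.802, 0.943, 1.73, 1.39 and 1.13 CPM in WT to 3.53 to 5.28 in Veh (median 4.70; log2 fold change 1.94 ± 0.20), and was at 2.14 to 3.75 in Anti-miR-21 (median 2.61; -0.78 ± 0.17 against Veh) and at 3.61, 3.01 and 4.53 in ACEi (-0.31 ± 0.21, adjusted p = 0.25). All treated mice stayed above the highest WT mouse.

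Gsto1 (ENSMUSG00000025068, chr19:47854970-47864790), an omega-class enzyme that acts as a thiol transferase and dehydroascorbate reductase, rose in Veh. WT mice had 34.1, 33.6, 26.7, 24.5 and 30.0 CPM, Veh mice 56.8 to 111 (median 68.3), Anti-miR-21 mice 40.4 to 54.9 (median 44.5) and ACEi mice 42.9, 39.0 and 45.9. Treated mice lay between WT and Veh without overlap with either. The log2 fold change was 1.41 ± 0.15 in Veh (edgeR adjusted p = 6.2e-08), -0.79 ± 0.14 and -0.90 ± 0.18 in Anti-miR-21 and ACEi against Veh, and 0.62 and 0.52 against WT. The last did not pass without ACEi replicate 1 (0.52) or 3 (0.47) or WT replicate 4 (0.45).

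In the alpha class, the calls of Gsta4 and Gsta2 moved with single libraries. Gsta4, which clears the lipid peroxidation product 4-hydroxynonenal, was at 17.3, 16.5, 18.9, 18.03 and 17.7 CPM in WT, and at 49.1, 31.6 and 23.6 in the 3 Veh libraries with adipocyte markers against 13.9, 23.6 and 13.2 in the other 3. Its log2 fold change in Veh against WT was 0.55 ± 0.24 (edgeR adjusted p = 0.046), 0.27 without Veh replicate 1, and -0.06 without the 4 libraries, and it did not pass without Veh replicate 2 (0.49) or 5 (0.58) or without any WT mouse (0.53 to 0.57). Gsta2 was at 77.7 ± 23.4 CPM (SD, n = 5) in WT and 96.5 ± 15.2 (n = 6) in Veh (0.31 ± 0.19, adjusted p = 0.15; past the threshold without WT replicate 2 at 0.45) and at 137 ± 33.7 (n = 6) in Anti-miR-21. That was above WT by 0.81 ± 0.20, and 28.4% of its windows occur in other genes. The deposited FPKM of Gsta2 were 45.0 to 93.1 in WT, 106 to 155 in Veh and 103 to 192 in Anti-miR-21. On that scale Veh did not overlap with WT. Gsta1 rose in Veh by 1.92 ± 0.56 (edgeR adjusted p = 0.0044), from 1 to 14 counts in the WT mice to 19 to 83 in Veh, with overlapping CPM and with 80.6% of its windows in other genes.

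Of the 4 tested Sult1 genes 3 fell in Veh and 1 did not pass, while Sult2b1, Sult4a1, Sult5a1 and, with the limit given below, Sult6b1 rose. Sult1d1 (ENSMUSG00000029273, chr5:87554645-87569027), which sulfonates catecholamines and eicosanoids in the mouse, was at 902, 596, 662, 681 and 1007 CPM in WT, 94.1 to 236 in Veh (median 129), 355 to 674 in Anti-miR-21 (median 446) and 378, 351 and 344 in ACEi. Veh lay below all other mice, and Anti-miR-21 overlapped with the lower WT mice. The log2 fold change was -2.40 ± 0.21 in Veh (edgeR adjusted p = 2.7e-09), 1.72 ± 0.20 in Anti-miR-21 and 1.30 ± 0.23 in ACEi against Veh, and -0.68 and -1.10 against WT. Sult1b1, of the same cluster, which handles thyroid hormones, fell by 1.49 ± 0.19 from 3.45 ± 0.571 CPM (SD, n = 5) to 1.23 ± 0.310 (n = 6), and was at 3.30 ± 0.616 (n = 6) in Anti-miR-21 and 2.58 ± 0.705 (n = 3) in ACEi.

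Sult1c2 was at 156, 158, 132, 113 and 127 CPM in WT, 54.3 to 90.5 in Veh (median 68.3), 126 to 159 in Anti-miR-21 (median 139) and 122, 132 and 111 in ACEi. Both treatments overlapped with WT, with log2 fold changes against WT of 0.04 ± 0.11 and -0.17 ± 0.13, and differed from Veh by 1.02 ± 0.11 and 0.80 ± 0.13. On the deposited FPKM scale Sult1c2 overlapped between WT (62.4 to 84.1) and Veh (44.7 to 66.6). Its FPKM means were 71.6 in WT, 56.0 in Veh, 87.3 in Anti-miR-21 and 79.9 in ACEi. Sult1a1, the phenol sulfotransferase, did not pass in Veh against WT (0.30 ± 0.19, edgeR adjusted p = 0.16). Its deposited FPKM did not overlap between these groups, at 7.01 to 10.8 in WT and 11.9 to 26.2 in Veh. Its lower value in Anti-miR-21 against Veh (-0.42 ± 0.18, edgeR adjusted p = 0.049) was lost without Veh replicate 3 (-0.20), which held 26.2 CPM against 11.9 to 16.4 in the other Veh mice, and without any of Veh replicates 1 and 4 or Anti-miR-21 replicates 1, 2, 3, 4 and 6 (-0.37 to -0.45).

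**Figure D5:**
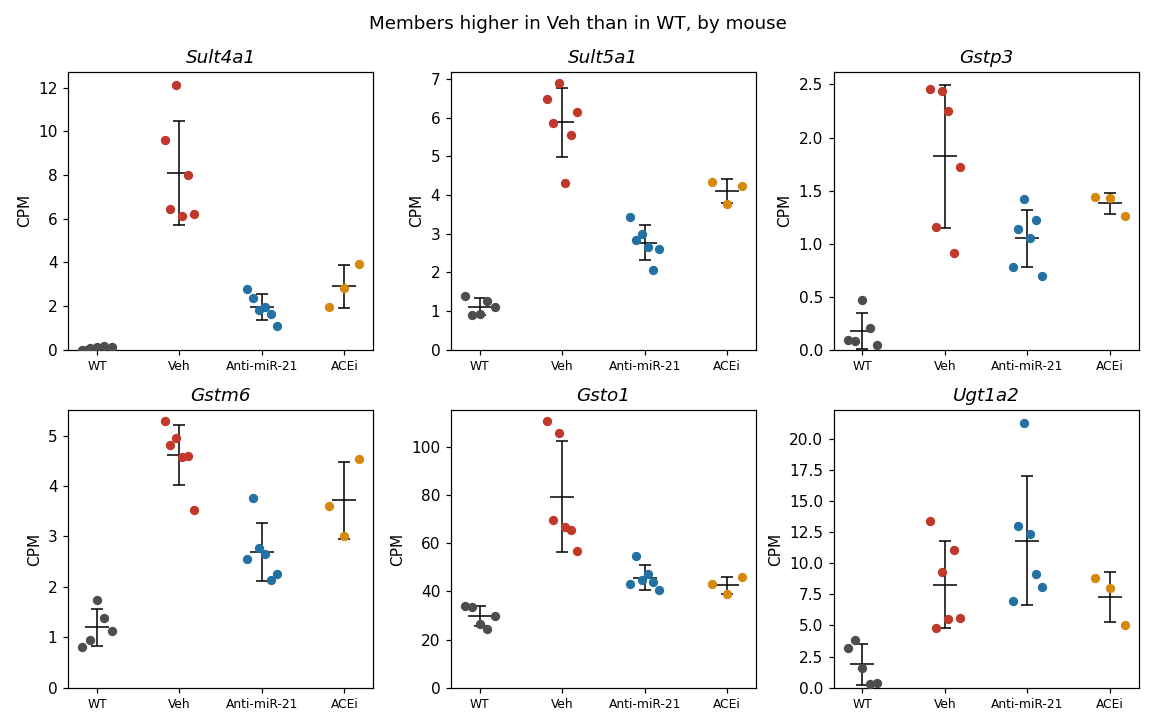
CPM of single mice for 6 members that were higher in Veh, on a linear axis, with 1 point per mouse and bars for each group's mean and SD. Sult4a1 ran from 0 to 0.164 CPM in WT and from 6.11 to 12.1 CPM in Veh, with both treatments between them.

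Sult4a1 (ENSMUSG00000018865, chr15:84076097-84105754), a sulfotransferase-like gene best known from brain whose activity is not established, had the largest rise of the members. It was at 0, 0.0820, 0.127, 0.164 and 0.126 CPM in WT, from 0 to 4 counts per mouse, and at 6.11 to 12.1 in Veh (median 7.23), from 198 to 433 counts. Anti-miR-21 mice had 1.09 to 2.79 (median 1.87) and ACEi mice 1.93, 2.83 and 3.92, so both treatments lay between WT and Veh without overlap. It rose by 6.27 ± 0.39 on the log2 scale in Veh against WT (edgeR adjusted p = 3.3e-11), and its size rests on the few WT counts. The fold change was -2.06 ± 0.25 and -1.48 ± 0.31 in Anti-miR-21 and ACEi against Veh.

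Sult5a1 (ENSMUSG00000000739) rose from 1.38, 0.902, 0.929, 1.27 and 1.09 CPM in WT to 4.32 to 6.89 in Veh (median 6.01; log2 fold change 2.40 ± 0.16). It was at 2.07 to 3.43 in Anti-miR-21 (median 2.75; -1.08 ± 0.14 against Veh) and at 4.33, 3.76 and 4.22 in ACEi (-0.52 ± 0.17, edgeR adjusted p = 0.020). The ACEi difference did not pass without ACEi replicate 2 (-0.45) or 3 (-0.53) or Veh replicate 3 (-0.44). Every Anti-miR-21 mouse was below every ACEi mouse, with a direct difference of -0.57 ± 0.17 (adjusted p = 0.13). Sult2b1, which sulfonates cholesterol and pregnenolone, was at 0.356, 1.15, 1.56, 2.86 and 1.22 CPM in WT and 2.46 to 4.51 in Veh (median 3.43; 1.26 ± 0.31), and was at 1.14 to 1.35 in Anti-miR-21 (median 1.24; -1.47 ± 0.29) and 1.48, 1.29 and 1.06 in ACEi (-1.43 ± 0.37), within the WT range. Sult6b1 had 3, 1, 1, 3 and 2 counts in the WT mice and 3 to 18 in Veh, a log2 fold change of 1.86 ± 0.52. Its CPM overlapped between the groups (0.0410 to 0.134 in WT, 0.0926 to 0.498 in Veh). Only Veh mice reached 10 counts, so the gene was tested through the group where it was high, and no p-value is given.

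The direct comparison of the treatments gave 0 of 45 members past the threshold with edgeR, beside 0.584% of all genes. At an unadjusted p under 0.05 there were 8, beside 2562 of the 17622 genes. DESeq2 called 3 (Gstk1, Sult5a1 and Ugt2b34), beside 443 of 17052 genes, and limma on log2 FPKM called 0. Values did not overlap for Gstk1, higher in Anti-miR-21, and for Sult5a1 and Ugt2b34, lower there, beside 8.99% of all genes in either direction (4.19% higher and 4.80% lower). Ugt2b34 had the largest of these differences, -0.94 ± 0.23 (edgeR adjusted p = 0.058). With 3 ACEi mice, standard errors of these direct differences reached 0.62 on the log2 scale (Gsta1), Ugt1a5 aside.

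The treated mice were also set against WT, and these comparisons share the WT mice. In Anti-miR-21, 9 members were higher and 12 lower (median 0.01), beside 43.7% of all genes past the threshold (23.9% higher, 19.8% lower). Values did not overlap for 7 higher and 8 lower members, beside 23.8% of all genes (14.7% and 9.06%). In ACEi, 8 members were higher and 15 lower (median -0.17), beside 47.7% of all genes (25.2% higher, 22.5% lower), and values did not overlap for 7 higher and 16 lower, beside 46.1% (23.9% and 22.3%). Ugt genes gave 2 higher and 5 lower in each. Ugt1a5 aside, the furthest from WT on the log2 scale were Ugt1a7c below it, at -2.22 in each treatment, and Sult4a1 above it, at 4.21 ± 0.41 in Anti-miR-21 and 4.78 ± 0.43 in ACEi. Gstp3 stood at 2.54 ± 0.43 and 2.93 ± 0.47, and became 3.27 and 3.66 without WT replicate 3. Without the 4 libraries with adipocyte markers the numbers were 9 and 15 in Anti-miR-21 and 8 and 16 in ACEi. Of 17263 genes, 4389 were then higher and 3310 lower in Anti-miR-21, and 4648 higher and 3760 lower in ACEi.

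Summed over a family, the Ugt genes made 3833 ± 264 CPM (SD, n = 5) in WT, 828 ± 286 (n = 6) in Veh, 2576 ± 443 (n = 6) in Anti-miR-21 and 2297 ± 183 (n = 3) in ACEi. The Sult genes made 926 ± 176, 251 ± 59.0, 644 ± 126 and 503 ± 18.3 CPM in the same order, and the Gst genes 2190 ± 127, 1314 ± 172, 1868 ± 274 and 1586 ± 129. On this TMM scale no Veh sum reached a WT sum in any family. The TMM factors were 0.771 to 0.850 in WT and 1.12 to 1.26 in Veh. Sums under library totals alone were not computed, so the gap is given for the TMM scale only. In counts before scaling, the families were not alike for the gene with most counts in WT. Gstm1 overlapped, with 10937 to 22987 counts in Veh and 12426 to 17780 in WT. Ugt3a2 did not (2860 to 14750 in Veh, 36286 to 41360 in WT), nor did Sult1d1 (3404 to 7633 in Veh, 14523 to 24001 in WT). Markers of several cell types moved with these sums. For the proximal tubule, 7 of 7 fell in Veh (median -2.40) and 7 of 7 rose in each treatment (medians 1.92 and 1.52), with sums of 5879 to 10379 CPM in Anti-miR-21 and 6078 to 7977 in ACEi. Markers of intercalated cells (3 of 3, median -0.97) and erythroid cells (3 of 3, median -4.20) also fell in Veh, and 3 of 3 of each rose in both treatments, while 2 of 3 distal tubule markers fell in Veh and rose in each treatment and the other, Trpm6, rose in Veh and fell in ACEi. In Veh, markers of macrophages (6 of 6, median 4.17), fibroblasts (5 of 5, median 2.03) and tubule injury (5 of 5, median 5.64) rose. Of these, 6, 4 and 4 fell in Anti-miR-21 and 6, 2 and 1 in ACEi against Veh. The part of these cell types in the members' changes was not tested.

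The supply of the conjugating groups was measured in lists of other genes. For glucuronidation, 4 of 5 genes fell in Veh (median -1.04), among them Ugdh, which makes UDP-glucuronic acid (-1.04 ± 0.08), and the UDP-sugar transporters Slc35d1 (-1.32 ± 0.12) and Slc35d2 (-1.11 ± 0.10), and 4 rose in each treatment while 1 fell in Anti-miR-21. For sulfonation, 7 of 9 fell and 2 rose in Veh (median -1.28). The PAPS synthase Papss2 (-1.87 ± 0.19) and Bpnt1, which removes the spent donor (-1.99 ± 0.14), fell, while Slc13a1, the sodium-sulfate cotransporter (0.59 ± 0.18), and Slc35b2, the Golgi PAPS transporter (0.20 ± 0.08), rose, and 7 rose in each treatment. For glutathione, 13 of 15 fell in Veh (median -2.07), with Cbs, the first step from homocysteine to cysteine, at -3.03 ± 0.29 and Ggct, the gamma-glutamyl cyclotransferase, at -2.85 ± 0.22, and 13 rose in each treatment while 2 fell in Anti-miR-21. The cystine importer Slc7a11 rose in Veh by 2.92 ± 0.58 and Chac1, which degrades glutathione, by 0.84 ± 0.26.

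Of 17 other conjugation enzymes, which methylate, acetylate, join amino acids or, for the microsomal Mgst genes and Hpgds, act on glutathione, 13 were lower and 4 higher in Veh (median -1.15). Acsm3 (-3.47 ± 0.41) and Acsm2 (-3.19 ± 0.28), medium-chain acyl-CoA synthetases, were lower, and Hpgds, the hematopoietic prostaglandin D synthase of the sigma-class Gst family (4.11 ± 0.27), and Nnmt, the nicotinamide methyltransferase (3.77 ± 0.36), were higher. The other 2 that rose were the microsomal glutathione transferase genes Mgst1 (1.27 ± 0.14) and Mgst2 (2.06 ± 0.60), while Mgst3 fell (-0.63 ± 0.09). In Anti-miR-21 13 of these rose and 4 fell, and in ACEi 11 and 3. Of 7 efflux transporters that export conjugates, 4 rose and 3 fell in Veh (median 0.46). The basolateral exporter Abcc3 (3.20 ± 0.32) and the organic anion exporter Abcc4 (1.12 ± 0.15) rose, and Abcc6 (-1.88 ± 0.16) and the apical Abcg2 (-1.56 ± 0.15) fell. Abcc3 was lower in both treatments against Veh (-1.83 ± 0.27 and -1.25 ± 0.34), and the list had 3 higher and 4 lower in Anti-miR-21 and 3 and 3 in ACEi.

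Of 15 regulators, 9 fell and 4 rose in Veh (median -0.44). The hepatocyte nuclear factor gene Hnf4a fell from 826 ± 89.1 CPM (SD, n = 5) to 245 ± 52.9 (n = 6; -1.75 ± 0.13) and was at 623 ± 85.8 (n = 6) in Anti-miR-21 and 570 ± 31.8 (n = 3) in ACEi. The bile acid receptor gene Nr1h4 fell by 1.92 on the log2 scale, and Ahr, the receptor that binds the xenobiotic element, rose by 1.64 ± 0.15 and was lower in both treatments (-1.37 ± 0.14 and -1.16 ± 0.18). The xenobiotic receptor gene Nr1i2 rose by 0.64 ± 0.17. In the treatments 8 regulators rose and 3 fell in Anti-miR-21, and 7 rose and 2 fell in ACEi, against Veh. Of 6 other target genes of NRF2, the factor that binds the antioxidant element, 3 fell and 2 rose in Veh (median -0.22), with Nqo1 at -1.31 ± 0.12 and Hmox1 at 0.67 ± 0.12. Slc7a11 and Gclm stood both in this list and in that of glutathione supply. Against Veh, 3 rose and 1 fell in Anti-miR-21, and 4 rose in ACEi.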

How the data were processed

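Total kidney RNA had been sequenced as paired-end reads on an Illumina HiSeq. Per the study's methods, the authors mapped the reads to GRCm38 with OSA4 in OmicSoft Studio and quantified Ensembl genes. The deposited count table holds estimated counts, 27.9% of whose positive values are not whole, and the deposited FPKM table holds values the authors normalised by length and library total. 3 FPKM columns that matched no sample were not used. Depth was 28474301 to 29479629 counts per mouse. Groups came from the labels, and nothing else marks the mice as independent litters, so the tests assumed independent mice. The p-values judge group differences against the spread between these mice.

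Counts were rounded and fitted with edgeR 4.0.16 in R 4.3.3 (TMM, filterByExpr with a minimum of 10 counts and a total of 15, quasi-likelihood test, a coefficient per group over the 20 mice), with Benjamini-Hochberg adjustment over 17622 genes and a threshold of 0.05. CPM are after TMM. Alternatives were DESeq2 1.42.0, limma 3.58.1 on log2(FPKM + 1) and log2(FPKM + 0.1), other scalings and filters, a flow cell term, and leaving out each mouse. The fits were run on simulated data in which few or none of the genes were made to change, up and down alike. Most genes differed between Veh and WT, and that setting was not simulated. The members, the gene lists and the named genes (the highest in WT and those with the largest changes per family, with set lists of partners) were chosen with earlier results of these data known. Ugt2a3, Ugt8a, Ugt1a10, Ugt1a6a, Ugt1a5, Ugt2b34, Ugt2b37, Gsta1, Gsta2, Gsta3, Gsta4, Gstt2 and Sult6b1, and Ugdh, Mgst1, Mgst2 and Mgst3 among the partners, were added after their values were seen.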

Additional observations from a re-analysis of the deposited data

Results flagged for a closer look

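In 6 of 134 groups of 5 or 6 mice (4.48%), 1 mouse stood far from the others by Dixon's test at its 95% critical value. Chance gives about 1 in 20. Each group was a tested member in WT, Veh or Anti-miR-21, and the 3 ACEi mice were not tested in this way. Gstt1 was at 101.7 CPM in WT replicate 4, against 117 to 121 in the other WT mice. Ugt1a1 in the same mouse was at 6.58 CPM, against 9.58 to 10.3. Ugt1a1 was at 20.4 CPM in Anti-miR-21 replicate 6, against 7.34 to 11.9. Ugt1a5 was at 0.881 CPM in WT replicate 5 and 0 in the other WT mice. Sult1a1 was at 26.2 CPM in Veh replicate 3, against 11.9 to 16.4. Ugt2b38 was at 149 CPM in Veh replicate 4, against 47.3 to 77.8, and the same mouse had the highest proximal tubule marker sum of the Veh group, 3373 CPM.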

How the results depend on the processing

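No paired analysis was possible because the replicate numbers follow the order of the samples and name no litter, day or pair. Leaving out each mouse in turn, the members past the threshold numbered 36 to 40 in Veh against WT, 34 to 39 in Anti-miR-21 against Veh, 24 to 31 in ACEi against Veh, 0 to 1 in Anti-miR-21 against ACEi, 20 to 24 in Anti-miR-21 against WT and 16 to 24 in ACEi against WT. Over all genes the same fits called 12491 to 12804, 9655 to 10355, 4978 to 7335, 6652 to 7935 and 6856 to 8418 in that order, leaving aside Anti-miR-21 against ACEi, where the lowest was 21 beside 103 with every mouse. In Anti-miR-21 against ACEi, where edgeR called 0, DESeq2 called 3 and a minimum of 10 counts in every library gave 1 (Ugt2b34). The fit of these 2 groups alone gave 1 (Ugt2b34), and leaving out Anti-miR-21 replicate 2 gave 1 (Gstk1). Each of these alternatives also called more of all genes than the 103 with every mouse. Leaving out Anti-miR-21 replicate 2 gave the most such calls of the fits without 1 mouse. These member calls thus came with longer lists over all genes. The 4 libraries with adipocyte markers were left out as an alternative chosen after seeing the data, and 35, 31 and 26 members then passed in Veh against WT, Anti-miR-21 against Veh and ACEi against Veh, beside 11694, 8007 and 4614 of 17263 genes.

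Of 5690 values of single members under an alternative, 5305 kept direction and side of the threshold (or, in 188 cases, changed sign while past the threshold in neither fit), 258 no longer passed, 98 newly passed and 29 reversed. In Veh against WT, log2 fold changes reversed under library totals alone for Ugt1a10 (0.49), Gstt1 (0.35), Gstm5 (0.21), Gstm7 (0.098) and Ugt2b5 (0.19), under log2(FPKM + 1) for Ugt1a10 (1.22), Ugt1a6a (0.035), Ugt1a1 (0.37), Gstt1 (0.35), Gstm5 (0.22), Gstm7 (0.095) and Ugt2b5 (0.15), under log2(FPKM + 0.1) for the same genes in that order (1.24, 0.041, 0.57, 0.35, 0.22, 0.11 and 0.20), and for Gsta4 without the 4 libraries (-0.059). Gstt1 reversed in Anti-miR-21 against Veh under library totals (-0.095) and both FPKM settings (-0.10 and -0.10). In ACEi against WT, Ugt1a9, Ugt1a1 and Gstm4 reversed under log2(FPKM + 1) (0.72, 0.61 and 0.0038) and log2(FPKM + 0.1) (0.92, 0.91 and 0.0050). The cause of the reversals was not tested. Depth limits Gstp3, Sult4a1, Sult6b1, Gsta1 and Ugt1a5, which rest on few WT counts.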
